A study of Schizosaccharomyces pombe with 8 samples.

Results

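The stress MAP kinase cascade of the fission yeast Schizosaccharomyces pombe was examined as 10 genes: the kinase kinase kinase genes wis4 and win1, their partner mcs4, the kinase kinase gene wis1, the MAP kinase gene sty1, the downstream kinase gene srk1, the transcription factor genes atf1 and pcr1, and the tyrosine phosphatase genes pyp1 and pyp2. They were taken by gene name, as known members of the pathway, from 2882 tested genes with 1 name, and the pathway was picked with earlier results of these data known. Each of the 10 matched 1 probe set, and all 10 had a signal on every array. Messenger RNA was compared between a strain deficient in zfs1, the gene of an mRNA-destabilising zinc finger protein, and a wild-type strain. Each strain was represented by 4 separate cultures in Edinburgh minimal medium supplemented with adenine, histidine, leucine, lysine and uracil, grown at 30 °C until the culture absorbance was 1.0. No stress was applied, so the arrays describe the pathway's transcripts in growing cells. How the zfs1 gene was disrupted, and the mating type and other alleles of the strains, are not given in the sources used here.

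In this pathway a signal passes down a chain of kinases. Wis4 and Win1, bound to the response regulator Mcs4, phosphorylate Wis1, which phosphorylates Sty1 on a threonine and a tyrosine. Active Sty1, the counterpart of mammalian p38 and budding yeast Hog1, enters the nucleus and acts through the bZIP factor Atf1 and its partner Pcr1 to raise stress genes, while Pyp1 and Pyp2 remove the activating phosphate from the tyrosine. Activation of the kinases is by phosphorylation, which an array of mRNA does not measure.

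Signals are given as log2 values. Each difference subtracts the wild-type mean from the zfs1-deficient mean, and a call is a Benjamini-Hochberg adjusted p under 0.05 over 4969 tested probe sets. The number of arrays limits the precision. The zfs1 probe set itself gave 4.18, 4.33, 4.55 and 3.51 on the zfs1-deficient arrays, against 10.48, 10.54, 10.39 and 10.62 on the wild-type arrays, so each array matched its label. All signals of the cascade genes, the lowest of which was 7.64, lay above the brightest reporter control of any array, 5.75. The arrays were not equally alike. Zfs1-deficient arrays 1 and 3 were the closest pair of a strain, with an SD of 0.22 for their difference over 4914 probe sets, and pairs that held an array numbered 4 were the farthest, at 0.48 to 0.56. In their deviations from the strain means, same-numbered arrays of the strains correlated at 0.70 for number 4 and at 0.26 to 0.37 for the others. Zfs1-deficient array 3 correlated more with wild-type array 1 (0.41), and zfs1-deficient array 1 correlated at 0.25 with wild-type array 3. The pairing by number was thus not clear for arrays 1 and 3, and calls with a replicate block depend on it. Each result that the pairing changes is also given from a fit blocked on replicate number. Since each array averages a whole culture, fewer cells expressing a gene and less RNA per cell cannot be told apart.

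No gene of the cascade passed the test between the strains, 0 of 10, where 287 of all 4969 probe sets (5.78%) did (limma). At an unadjusted p under 0.05 the count was 1 of 10, pcr1, beside 20.6% of all probe sets. Differences ran from -0.11 for mcs4 to 0.39 for pcr1, 5 of the 10 were above 0, and their median was 0.077 beside -0.013 for all probe sets. In none of the 10 did the arrays of one strain all lie above or below those of the other, a pattern seen in 15.5% of 4914 probe sets measured on all arrays. When replicate number entered as a block, 1 of 10 was called, pyp1, beside 24.2% of all probe sets. With limma's array weights 3 of 10 were called, sty1, pyp1 and pcr1, all higher without zfs1, beside 25.7% of all probe sets. Without both arrays numbered 4, the count was 0 of 10 with the block, beside 17.9% of all probe sets, and 0 of 10 without it, beside 12.3%. Except for pyp2, each gene's 95% interval stayed within a 1.63-fold change in either direction, so a larger change lies outside the intervals of those 9.

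**Figure D1:**
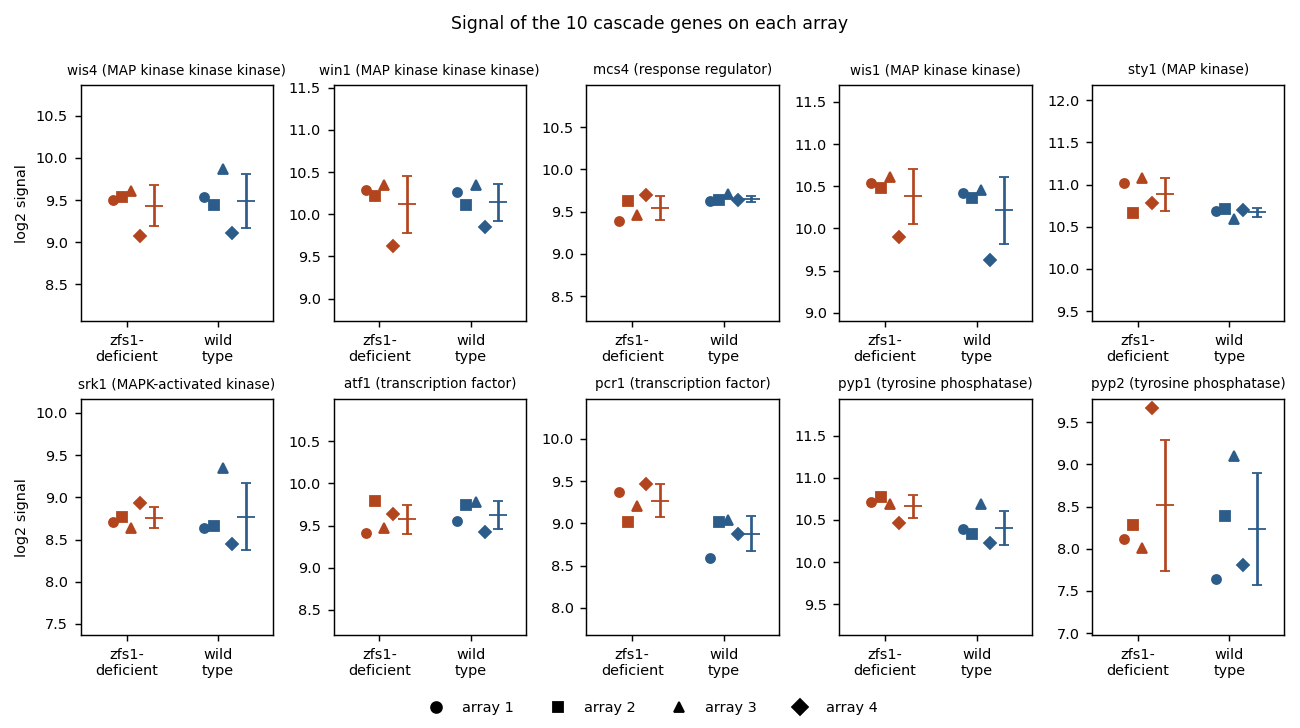
Log2 signal of the 10 cascade genes (vertical axis, each panel spanning the same number of log2 units) on the 4 zfs1-deficient and the 4 wild-type arrays, with symbols for the replicate number and bars for the mean and SD. Groups overlap in every panel, and pyp2 has the widest spread, with 9.66 on zfs1-deficient array 4 and 9.10 on wild-type array 3.

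At the head of the cascade, the transcripts of both kinase kinase kinases showed almost the same mean in the strains. wis4 (SPAC9G1.02) had 9.50, 9.54, 9.61 and 9.08 on zfs1-deficient arrays 1 to 4, against 9.54, 9.44, 9.87 and 9.11 on wild-type arrays 1 to 4. The array numbered 4 was the lowest of each strain, and the ranges of the strains overlapped almost completely. The difference was -0.06 ± 0.18 (SE, n = 4 per strain; 95% interval -0.45 to 0.34; limma, adjusted p = 0.901).

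win1 (SPAC1006.09), the second kinase kinase kinase gene, had 10.29, 10.22, 10.34 and 9.62 without zfs1 and 10.27, 10.10, 10.35 and 9.85 in wild type. Again array 4 was the lowest of both strains, by 0.66 below the mean of the other 3 zfs1-deficient arrays and by 0.39 below that of the other 3 wild-type arrays. The strain difference was -0.02 ± 0.18 (SE; 95% interval -0.42 to 0.37; limma, adjusted p = 0.963).

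mcs4 (SPBC887.10) encodes the response regulator that holds the kinase kinase kinases and receives the phosphorelay signal of peroxide stress. Its signals were 9.39, 9.62, 9.46 and 9.70 in zfs1-deficient cultures, against 9.62, 9.64, 9.71 and 9.64 in wild-type cultures. Zfs1-deficient arrays 1 and 3 lay below every wild-type array, array 2 lay level with the lowest of them, array 4 lay within their range, and the wild-type SD of 0.04 was the smallest in either strain among the 10 genes. The difference was -0.11 ± 0.10 (SE; 95% interval -0.33 to 0.11; limma, adjusted p = 0.585), and -0.059 without zfs1-deficient replicate 1.

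The kinase kinase gene wis1 (SPBC409.07C) had 10.54, 10.48, 10.61 and 9.90 without zfs1 and 10.42, 10.36, 10.45 and 9.62 in wild type. Each zfs1-deficient array was higher than the wild-type array of its number, by 0.12, 0.12, 0.16 and 0.27. Across numbers the strains overlapped, because array 4 of each strain was far below the rest. The difference of 0.17 had an SE of 0.22 without the block (adjusted p = 0.713) and of 0.0611 with it (adjusted p = 0.0797), and neither fit called it. Without wild-type replicate 4 it was -0.029.

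sty1 (SPAC24B11.06C), the MAP kinase gene, had 11.02, 10.66, 11.08 and 10.78 on zfs1-deficient arrays and 10.69, 10.71, 10.59 and 10.69 on wild-type arrays. Zfs1-deficient arrays 1, 3 and 4 lay above all wild-type arrays and array 2 lay within their range. The wild-type SD was 0.06 and the zfs1-deficient SD 0.20 (n = 4 each). The difference of 0.22 ± 0.10 (SE; 95% interval -0.02 to 0.45) was not called (limma, adjusted p = 0.277). It was called with array weights (0.35, adjusted p = 0.0103), a fit that gave zfs1-deficient arrays 1 and 3, the ones with the highest sty1 signals, weights of 5.18 and 5.42 and array 4 of that strain 0.20. In a fit without weights, where those 2 arrays were averaged and counted as 1, the difference was 0.16 (adjusted p = 0.522). Averaging was not combined with array weights, so it does not bear on the weighted call.

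srk1 (SPCC1322.08) encodes a kinase that Sty1 phosphorylates and that restrains entry into mitosis by acting on the phosphatase Cdc25. Its signals were 8.71, 8.76, 8.64 and 8.93 in zfs1-deficient cultures, against 8.64, 8.66, 9.34 and 8.45 in wild-type cultures. One wild-type array, number 3, stood above all others, and the remaining 7 lay between 8.45 and 8.93. The difference was -0.01 ± 0.19 (SE; 95% interval -0.43 to 0.40; limma, adjusted p = 0.981). Without wild-type replicate 3 it was 0.18 (adjusted p = 0.495).

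**Figure D2:**
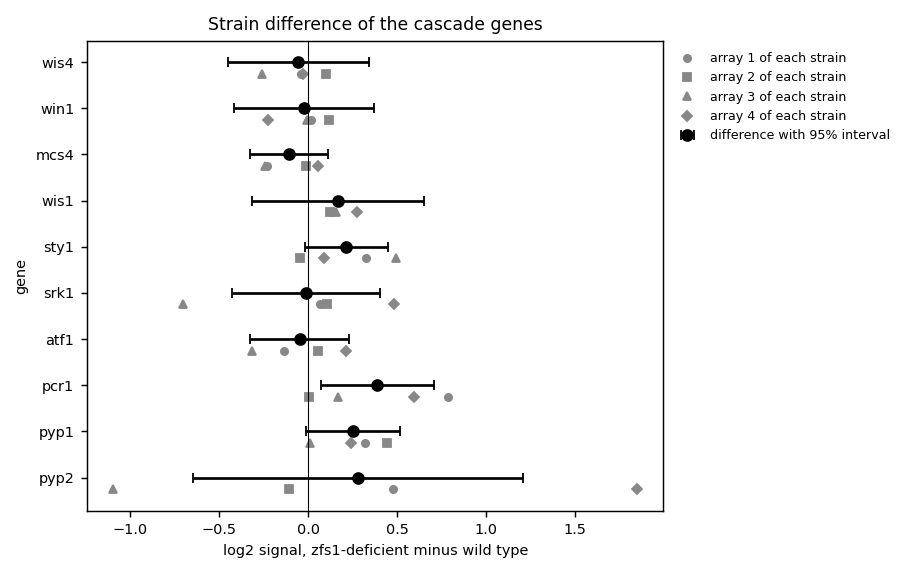
Strain difference of each cascade gene on the log2 scale (horizontal axis, zfs1-deficient mean less wild-type mean) with its 95% interval in black, and the 4 differences between same-numbered arrays in grey below it. The interval of pcr1, 0.07 to 0.71, lies above 0 before adjustment, and the 4 numbered differences of pyp2 run from -1.10 to 1.85.

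The transcription factor genes at the end of the cascade differed from each other in their values. atf1 (SPBC29B5.01), the bZIP factor that Sty1 phosphorylates, had 9.41, 9.79, 9.47 and 9.63 without zfs1 and 9.55, 9.74, 9.78 and 9.42 in wild type. The strains covered almost the same range, and the difference was -0.05 ± 0.12 (SE; 95% interval -0.33 to 0.23; limma, adjusted p = 0.880).

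pcr1 (SPAC21E11.03C), the bZIP partner of Atf1, had 9.38, 9.02, 9.21 and 9.47 in zfs1-deficient cultures and 8.59, 9.01, 9.04 and 8.87 in wild-type cultures. Of the 4 zfs1-deficient arrays, 3 lay above every wild-type array, and array 2, at 9.02, lay just below wild-type array 3. The means were 9.27 ± 0.20 without zfs1 and 8.88 ± 0.21 in wild type (SD, n = 4 each), a difference of 0.39 ± 0.14 (SE) or 1.31-fold, with a 95% interval of 1.05-fold to 1.63-fold. This was the smallest adjusted p of the 10 genes and missed the threshold (limma, adjusted p = 0.156; 0.0671 with the replicate block). All 4 numbered pairs were higher without zfs1, by 0.79, 0.01, 0.17 and 0.60. Leaving out 1 array gave adjusted p between 0.124 and 0.354.

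The phosphatase genes had unlike spreads. pyp1 (SPAC26F1.10C) encodes the main phosphatase that keeps Sty1 low in unstressed cells. It had 10.71, 10.77, 10.69 and 10.46 without zfs1 and 10.39, 10.33, 10.69 and 10.22 in wild type. Zfs1-deficient arrays 1, 2 and 3 lay above every wild-type array, array 3 only just above wild-type array 3 (10.693 against 10.686). Zfs1-deficient array 4 lay above wild-type arrays 1, 2 and 4 and below wild-type array 3. The difference of 0.25 ± 0.12 (SE; 95% interval -0.01 to 0.52) was not called (limma, adjusted p = 0.260) and was called in the blocked fit (SE 0.0774; adjusted p = 0.0478). All 4 numbered pairs were higher without zfs1, by 0.32, 0.44, 0.01 and 0.24. The call with the block was not obtained without both arrays numbered 4 (difference 0.26, adjusted p = 0.107).

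pyp2 (SPAC19D5.01) encodes a phosphatase whose transcript is itself raised by active Sty1 and Atf1, so that it feeds back on the pathway. Its signals were 8.11, 8.28, 8.005 and 9.66 in zfs1-deficient cultures, against 7.64, 8.39, 9.10 and 7.81 in wild-type cultures. The highest values were on zfs1-deficient array 4 and wild-type array 3, and the other 6 arrays lay between 7.64 and 8.39. Its pooled within-strain SD, 0.72, was larger than that of 97.6% of 4914 probe sets, whose median was 0.19. The difference was 0.28 ± 0.41 (SE; 95% interval 0.638-fold to 2.31-fold; limma, adjusted p = 0.757), and -0.24 without both arrays numbered 4.

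The spread between cultures of one strain was not shared by all members. The pooled SD was 0.10 for mcs4, 0.14 for sty1 and 0.17 for pyp1 and atf1, all below the median of all probe sets, 0.19. It was 0.20 for pcr1, 0.28 for wis4 and win1, 0.29 for srk1 and 0.36 for wis1. The wis4, win1, wis1 and pyp1 transcripts moved together from array to array: with the strain means removed, r over the 8 arrays was 0.92 between wis4 and win1, 0.92 between win1 and wis1, and 0.91 between wis4 and wis1. For pyp1 it was 0.95 with wis4, 0.82 with win1 and 0.77 with wis1. These r values are descriptions of 8 arrays, each of a separate culture, with the low arrays numbered 4 among them. All 4 of these genes were lowest on array 4 in both strains, so 4 of 10 had this pattern beside 28.4% of probe sets with 8 values. None of the 10 was highest on array 4 in both strains, where 25.3% of probe sets were. sty1 and mcs4 ran opposite to each other (r = -0.85), as did sty1 and atf1 (r = -0.76).

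Wild-type array 3 was the highest array of its strain for 9 of the 10 genes, the exception being sty1, for which it was the lowest. Over all probe sets with 8 values the share with this array highest in wild type was 28.3%. Both patterns were noticed after the values were seen, and no test was made of either. Whether a difference between those cultures or a step of array handling moved with them was not tested.

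**Figure D3:**
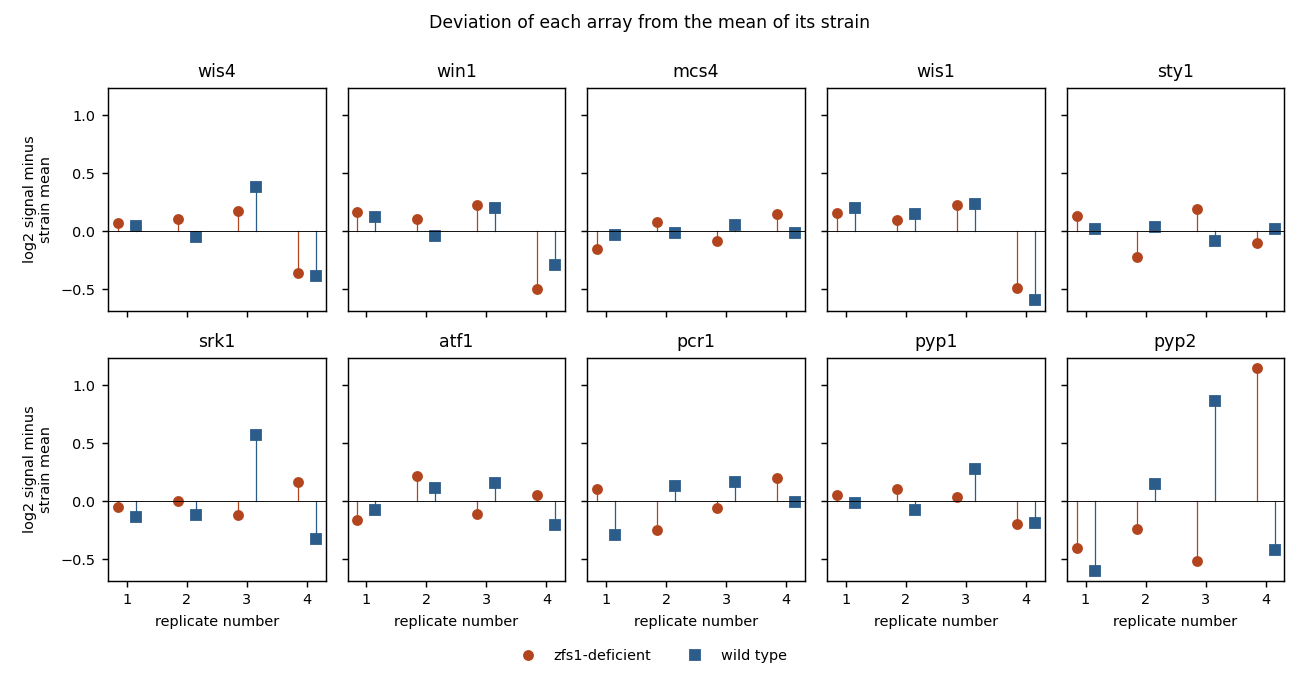
Deviation of each array from the mean of its strain in log2 units (vertical axis) by replicate number (horizontal axis) for the 10 cascade genes, with zfs1-deficient arrays as circles and wild-type arrays as squares. wis4, win1, wis1 and pyp1 lie below 0 on the arrays numbered 4 of both strains, while pyp2 is high on zfs1-deficient array 4 and low on wild-type array 4.

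The named gene most like each member over the 8 arrays was taken where r passed 0.95, among 2880 named genes. rsc1 was most like wis1 (r = 0.992), rqt2 most like win1 (r = 0.987), rsc4 most like wis4 (r = 0.979) and slu7 most like pyp1 (r = 0.977). For wis1, 73 genes passed 0.95, and for win1 53 did, so many transcripts followed the same course over these arrays. trs33 for mcs4, mug128 for srk1 and atp20 for pyp2 had r of 0.962, 0.962 and 0.952. No gene passed for sty1, atf1 or pcr1.

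Genes around the cascade were taken from lists by role, drawn up with earlier results of these data known, so their counts are descriptions. The lists held 56 genes, of which 55 were measured. Of these 10 rose and 1 fell without zfs1, 20% of the measured genes beside 5.78% of all probe sets. The blocked fit called 19 higher and 4 lower, where it called 24.2% of all probe sets, and 17 passed without both arrays numbered 4, where 12.3% did. Upstream, the phosphorelay carries peroxide stress from histidine kinases through the phosphotransfer protein Mpr1 to Mcs4. Of 7 measured genes of sensing and phosphorelay 0 passed in limma, and the median difference was 0.17. Before adjustment 1 was higher and 1 lower at p under 0.05, beside 20.6% of all probe sets. With the block 2 were higher and 2 lower, beside 24.2% of all probe sets. mak1, a histidine kinase gene, had 10.62, 10.57, 10.59 and 10.64 without zfs1, against 10.33, 10.21, 10.28 and 10.43 in wild type. The arrays did not overlap, and the difference of 0.29 ± 0.08 (SE) missed the threshold (adjusted p = 0.0682; 0.0104 with the block).

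mpr1 had 8.71, 9.43, 8.80 and 9.57 in zfs1-deficient cultures, against 7.68, 8.71, 7.95 and 9.17 in wild-type cultures. Arrays 2 and 4 were the highest of both strains, and each number was higher without zfs1. Its difference of 0.75 ± 0.33 (SE) had an adjusted p of 0.242 in limma and of 0.00357 with the block. With the block and without both arrays numbered 4 it was 0.87 (adjusted p = 0.00577). The response regulator gene prr1 was lower in all 4 pairs (-0.26 ± 0.16, SE; adjusted p = 0.392; 0.0148 with the block). Its difference was -0.17 without zfs1-deficient replicate 4 and -0.41 without wild-type replicate 4. With the block and without both arrays numbered 4 it was -0.31 (adjusted p = 0.0144). Lower in all 4 pairs too was wsh3, now named tea4, whose protein binds Win1 and marks cell ends (-0.42 ± 0.16; adjusted p = 0.174; 0.0306 with the block), a difference of -0.26 without zfs1-deficient replicate 4. Its call with the block was not obtained without both arrays numbered 4 (-0.28, adjusted p = 0.0641).

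Of the 4 protein phosphatase 2C genes, whose products can remove the threonine phosphate from Sty1, 1 rose, ptc2, beside 5.78% of all probe sets called. With the block 3 of the 4 passed, beside 24.2% of all probe sets. ptc2 had 9.46, 9.60, 9.59 and 9.29 without zfs1, against 8.80, 9.24, 8.69 and 8.81 in wild type. Every zfs1-deficient array exceeded every wild-type array, and the difference was 0.60 ± 0.14 (SE; limma, adjusted p = 0.0399). Leaving out each of the 8 arrays in turn kept the call 2 times, with adjusted p up to 0.124. ptc1 had 9.61, 9.85, 9.64 and 9.79 without zfs1, against 8.81, 9.39, 8.82 and 9.45 in wild type, with no overlap. Its difference of 0.61 ± 0.17 (SE) missed the threshold (adjusted p = 0.0688; 0.00491 with the block). ptc3 differed by 0.15 ± 0.09 (SE; adjusted p = 0.378; 0.0334 with the block), and by 0.081 without zfs1-deficient replicate 4. The call with the block was not obtained without both arrays numbered 4 (adjusted p = 0.0858).

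Among 7 genes of substrates and effectors 2 rose, csx1 and vip1, beside 5.78% of all probe sets called, and the median was 0.19. csx1 encodes an RNA-binding protein that Sty1 regulates and that stabilises the atf1 transcript under peroxide stress. It had 10.73, 10.79, 10.73 and 10.60 without zfs1, against 10.14, 10.11, 9.95 and 10.22 in wild type. The strains were clearly apart, with a difference of 0.61 ± 0.09 (SE; limma, adjusted p = 0.0066), and the call was kept whichever of the 8 arrays was omitted. The atf1 signals beside it, given above, covered almost the same range in the strains. vip1, an RNA-binding protein gene, had 12.76, 12.76, 12.78 and 12.89 without zfs1, against 12.27, 12.29, 12.27 and 12.62 in wild type, and rose by 0.43 ± 0.08 (SE; adjusted p = 0.0150; kept in 4 of 8 single-array omissions). cip1 and cip2, whose products bind Csx1, differed by 0.22 (adjusted p = 0.271) and 0.17 (adjusted p = 0.508).

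Of 7 other stress transcription factor genes 0 passed in limma, beside 5.78% of all probe sets, and the median was -0.14. At an unadjusted p under 0.05 the count was 0, beside 20.6% of all probe sets. 2 of the 7, atf21 and atf31, lay below the brightest reporter control of any array in both strains. atf21 also lay below the brightest control of its own array wherever it was measured. atf31 had 5.14, 5.61, 5.00 and 5.06 on wild-type arrays 1 to 4, where the brightest controls were 4.81, 5.11, 4.65 and 4.88. Without zfs1 it exceeded the control of its own array on array 4 only (5.06 against 4.93). Both signals were thus close to or below the controls. With the block hsf1, the heat shock factor gene, was higher (0.23 ± 0.12, SE; adjusted p = 0.319 without the block and 0.0228 with it), as prr1 was lower. Without both arrays numbered 4 the blocked adjusted p of hsf1 was 0.0502, and without wild-type replicate 4 its difference was 0.14. The gene of Pap1, the AP-1-like factor of oxidative stress, differed by -0.19 (adjusted p = 0.499).

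Of the reported target genes of Sty1 and Atf1, 5 of 13 rose, 0 fell, and the median difference was 0.46. The share of all probe sets called was 5.78%. With the block 8 of 13 passed, beside 24.2% of all probe sets. Differences of 10 of the 13 were above 0, beside 47.4% of all probe sets. Those below 0 were gst2 (-0.57, adjusted p = 0.563), cta3 (-0.38, adjusted p = 0.557) and srx1 (-0.31, adjusted p = 0.340), none called in limma. The targets were listed with earlier results of these data known, so these shares are descriptions. Among them, cta3 exceeded the brightest reporter control of any array on 2 of 4 zfs1-deficient and 3 of 4 wild-type arrays. ish1, a nuclear envelope protein gene of the stress response, had 10.93, 11.02, 10.99 and 11.32 without zfs1, against 9.15, 9.33, 9.94 and 9.63 in wild type. The gap between the strains exceeded the range within either, with a difference of 1.55 ± 0.17 (SE; limma, adjusted p = 0.00147). gpx1, the glutathione peroxidase gene, had 12.03, 12.03, 12.02 and 12.27 without zfs1, against 11.06, 11.34, 11.11 and 11.46 in wild type (0.85 ± 0.10, SE; adjusted p = 0.00219).

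hsp9, a small heat shock protein gene, had 12.74, 12.63, 12.73 and 12.97 in zfs1-deficient cultures, against 12.13, 11.85, 12.06 and 12.26 in wild-type cultures. It rose by 0.69 ± 0.09 (SE; limma, adjusted p = 0.00457). gpd1, which makes the glycerol used against osmotic stress, had 12.40, 12.34, 12.41 and 12.34 without zfs1, against 11.89, 11.80, 11.95 and 12.04 in wild type, and rose by 0.46 ± 0.06 (SE; adjusted p = 0.0032). ish1, gpx1, hsp9 and gpd1 each kept the call in all 8 single-array omissions. tps1, of trehalose synthesis, had 11.31, 11.53, 11.36 and 11.50 without zfs1, against 10.82, 11.00, 10.97 and 11.26 in wild type. It rose by 0.41 ± 0.10 (SE; adjusted p = 0.0461), a call kept in 1 of the 8 omissions and not obtained without the variance trend (adjusted p = 0.0670). ntp1, the neutral trehalase gene, did not overlap between the strains and narrowly missed the threshold (0.35 ± 0.09, SE; adjusted p = 0.0531; 0.0104 with the block). It was called under quantile normalisation (adjusted p = 0.0470), with centred medians (0.0453), on dropping the dimmest 25% of probe sets (0.0452), without the variance trend (0.0427) and without both arrays numbered 4 (0.0470).

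Other targets varied widely within a strain. The catalase gene ctt1 had 10.81, 10.42, 10.83 and 10.16 without zfs1, against 9.50, 9.96, 10.68 and 9.61 in wild type. Wild-type array 3 was the highest of its strain for ctt1, as for 9 of the 10 cascade genes and 28.3% of probe sets with 8 values. The ctt1 difference of 0.62 ± 0.26 (SE) had an adjusted p of 0.212, and of 0.0267 with the block (0.0748 when both arrays numbered 4 were also left out). hsp16, a small heat shock protein gene, had 12.51 on zfs1-deficient array 4 and 10.51 to 10.92 on the other 3. In wild type hsp16 had 11.22 on array 4 and 9.99 to 10.36 on the other 3. Its difference of 0.67 had an adjusted p of 0.423, and of 0.0142 with the block. The difference was 0.21 without zfs1-deficient replicate 4. With the block and without both arrays numbered 4 it was 0.46 (adjusted p = 0.0197). fbp1, a gluconeogenesis gene that Atf1 and Pcr1 activate, had 11.25 on zfs1-deficient array 4 and 6.89 to 7.02 on the other 3, against 8.70 on wild-type array 4 and 7.07 to 7.67 on the other 3. Its level on the arrays numbered 4 thus stood above the rest in both strains, and the strain difference of 0.39 ± 0.91 (SE) was not called (adjusted p = 0.861). fbp1 was picked for mention after its values were seen.

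**Figure D4:**
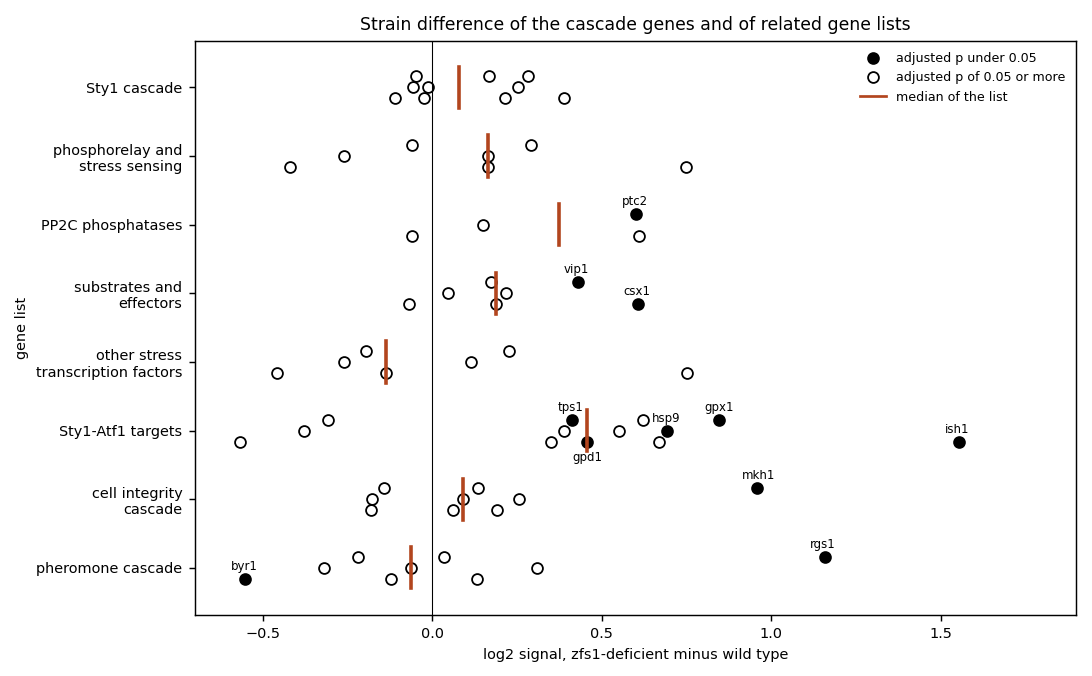
Strain differences on the log2 scale (horizontal axis, zfs1-deficient mean less wild-type mean) of the 10 cascade genes and of 7 lists of related genes, 1 point per gene, filled where the adjusted p was under 0.05. The cascade genes show no filled point and a median of 0.077, and the targets show 5 filled points and a median of 0.46. The lists were chosen with earlier results of these data known.

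The other MAP kinase cascades of fission yeast were set beside this one by the same fit, without a test of the difference between cascades. In the cell integrity cascade, which answers cell wall stress, 1 of 9 rose, beside 5.78% of all probe sets called. This was the kinase kinase kinase gene mkh1, with 10.05, 10.001, 10.09 and 9.55 without zfs1, against 9.17, 9.03, 9.06 and 8.61 in wild type. Its arrays were also lowest at number 4 in both strains, yet did not overlap between strains (0.96 ± 0.16, SE; adjusted p = 0.0107). The kinase C gene pck2 passed with the block (0.26 ± 0.09, SE; adjusted p = 0.147 without it and 0.0343 with it), and the kinase kinase gene pek1 (0.14, adjusted p = 0.695) and the MAP kinase gene pmk1 (-0.14, adjusted p = 0.646) did not pass. The list median was 0.091.

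In the pheromone cascade 1 of 9 rose and 1 fell, beside 5.78% of all probe sets called in either direction, and the median was -0.063. Among the 9, ste4 exceeded the brightest reporter control of any array on 3 of 4 zfs1-deficient arrays and on all 4 wild-type arrays. rgs1, which damps the G protein signal, had 8.43, 8.72, 8.45 and 8.71 without zfs1, against 7.36, 6.86, 7.59 and 7.88 in wild type, and rose by 1.16 ± 0.21 (SE; limma, adjusted p = 0.0134). byr1, the kinase kinase gene, had 8.82, 8.50, 8.83 and 8.49 without zfs1, against 9.06, 9.29, 9.44 and 9.05 in wild type, and fell by 0.55 ± 0.14 (SE; adjusted p = 0.0483; kept in 1 of 8 single-array omissions). ras1 passed with the block (-0.32 ± 0.17, SE; adjusted p = 0.338 without it and 0.0178 with it), and differed by -0.20 without wild-type replicate 4. Without both arrays numbered 4, ras1 also passed with the block (-0.36, adjusted p = 0.0362). The MAP kinase gene spk1 differed by 0.31 (adjusted p = 0.467).

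Marker genes of other states the cultures could hold were read beside these results. Genes specific to M cells (mfm2, mam2 and sxa2) and to P cells (map2 and map3) lay above the reporter controls on all 4 arrays of each strain. mam2 lay close to them, at 5.76 on zfs1-deficient array 2 beside 5.75 for the brightest control of any array. Of these 5 genes 0 passed between the strains in limma, beside 5.78% of all probe sets. At an unadjusted p under 0.05 the count was 0, beside 20.6%. With the block map2 was lower without zfs1 (-0.50; adjusted p = 0.343 without the block and 0.0299 with it), beside 24.2% of all probe sets called. On the linear scale the summed signal of the 3 M genes ran from 557 to 1080 on the zfs1-deficient arrays and from 537 to 980 on the wild-type arrays. The summed signal of the 2 P genes ran from 213 to 355 on the zfs1-deficient arrays and from 259 to 422 on the wild-type arrays. The M-factor gene mfm2 was highest on array 4 of both strains, at 9.69 without zfs1 and 9.60 in wild type. Of 3 meiosis genes spo6 rose (1.59, adjusted p = 0.0185), mei4 differed by 0.74 (adjusted p = 0.163; 0.0209 with the block), and mei2 by 0.03 (adjusted p = 0.976). The share of all probe sets called was 5.78% without the block and 24.2% with it. mei2 exceeded the brightest reporter control of any array on 1 of the 4 zfs1-deficient arrays and on 1 of the 4 wild-type arrays, and spo6 and mei4 on 4 zfs1-deficient and 3 wild-type arrays each. Their part in the values of the cascade genes was not tested.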

How the data were processed

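The authors deposited 1 value per probe set and array, read here as log10 signal from the values: array medians lay between 2.89 and 2.90, and maxima between 3.94 and 3.99. Signals came from the GeneChip Operating Software, per the labels, which name a nematode array although the probe table pairs its probe sets with fission yeast genes. Scaling and summarising of probes are not given in the sources used here. Values were converted to log2 and not normalised further. In another log base, all differences would scale by 1 common factor, and all folds would be raised to 1 common power. The 17 reporter controls were set aside, and of 4994 yeast probe sets 25 lacked the 2 values per strain needed for a test. Names came from the probe table, updated through the gene table of assembly ASM294v3, and a current symbol took precedence over a synonym. limma 3.58.1 (R 4.3.3; lmFit, eBayes with trend, 2-sided) compared the strains over 4969 probe sets, and the script was tested on simulated data. Figures used matplotlib 3.10.9.

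Same-numbered arrays of the strains correlated in their deviations from the strain means at 0.37, 0.33, 0.26 and 0.70 over 4914 probe sets, all above the 0.1 set as the minimum. The numbers were therefore treated as pairing the cultures, from the data and not from the labels. Unlike-numbered arrays passed this minimum too. Zfs1-deficient array 3 did so with wild-type arrays 1 (0.41) and 2 (0.12), and zfs1-deficient arrays 1 (0.25) and 2 (0.12) with wild-type array 3. The minimum thus does not single out the pairing by number, on which the calls with the block depend. The cascade genes and the lists were chosen with earlier results of these data known. Named genes were every cascade gene, zfs1, and of each list those called with or without the block or, where none was, the 2 with the smallest adjusted p. cip1, cip2, atf21, atf31, pap1, pek1, pmk1, spk1, fbp1, gst2, cta3 and srx1 were added after their values were seen.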

Additional observations from a re-analysis of the deposited data

Results flagged for a closer look

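Sets of 4 arrays were examined for the cascade genes and the named genes of the lists. Of 66 sets, 11 held an array whose gap to the nearest of the others, as a share of the set's range, passed Dixon's 95% critical value. Chance alone marks about 1 in 20 independent sets. These sets share the same 8 arrays, and the listed genes were named by their calls in these data. That rate is therefore no measure for the 11. The array was numbered 4 in 10 of the 11. Among the cascade genes, win1 had 9.62 on zfs1-deficient array 4, against 10.22 to 10.34 on the others, and pyp2 had 9.66 on that array, against 8.005 to 8.28. In wild type, wis1 had 9.62 on array 4, against 10.36 to 10.45, and sty1 had 10.59 on array 3, against 10.69 to 10.71.

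In zfs1-deficient cultures array 4 was the outlying one for ptc3 (11.87), vip1 (12.89) and gpx1 (12.27), where it was high, and for hsf1 (10.27) and mkh1 (9.55), where it was low. In wild type array 4 was high for vip1 (12.62) and low for hsf1 (10.05).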

How the results depend on the processing

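No cascade gene was called, 0 of 10 (0 of 9 on dropping the dimmest 25%, pyp2 among them), under quantile normalisation, centred medians, an offset of 64, no variance trend, any 1 array left out, or, chosen after the data were seen, without both arrays numbered 4 or with zfs1-deficient arrays 1 and 3 averaged. The replicate block called 1 and array weights 3. Of the 55 listed genes 11 were called: 23 with the replicate block, 23 with array weights, 17 without both arrays numbered 4, 19 without them and with the block, and 7 to 11 without 1 array, with 7 without zfs1-deficient replicate 3 or wild-type replicate 1 or 3. Over all probe sets 287 became 1201 with the block, 1275 with array weights, 609 without both arrays numbered 4, 888 without them and with the block, 114 with zfs1-deficient arrays 1 and 3 averaged, and 103 to 306 without 1 array.

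The differences of 6 cascade genes, none called in any fit, changed sign. win1 came to 0.070 with array weights and 0.043 without both arrays numbered 4, srk1 to 0.016 with arrays 1 and 3 averaged, and pyp2 to -0.031 with array weights and -0.24 without both arrays numbered 4. Without 1 array, the ranges, all of them with a change of sign except that of mcs4, were -0.16 to -0.059 for mcs4, -0.18 to 0.072 for wis4, -0.12 to 0.14 for win1, -0.029 to 0.33 for wis1, -0.12 to 0.18 for srk1, -0.12 to 0.0071 for atf1 and -0.10 to 0.57 for pyp2. The cause was not tested. Each cascade gene has 1 probe set, so the planned use of several gave no value. The signals of all 10 lay above the reporter controls.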
